A study of Homo sapiens with 7 samples.

Results

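The integrated stress response genes described here were 10 genes, ATF4 and 9 genes placed under it or beside it: ATF3, DDIT3, TRIB3, ASNS, CHAC1, SESN2, DDIT4, PSAT1 and PHGDH. They were chosen by gene symbol and made up 10 of the 16044 genes, and 24 of the 72453 sense poly(A) sites (PASs), of the deposited tables. All 10 had reads in 6 of the 7 libraries, and 9 had reads in siStar-PAP of batch 2, where DDIT3 had none. The libraries came from HEK293 cells, a long established human line derived from embryonic kidney, that received a control siRNA (siCtrl) or siRNAs against the nuclear poly(A) polymerases Star-PAP (siStar-PAP), PAPα (siPAPα), PAPγ (siPAPγ) or PAPα and PAPγ together (siPAPα+γ). No drug or stress treatment is named for any group. Total RNA was sequenced by 3′READS, which captures the end of the RNA at the poly(A) tail, and each PAS supporting (PASS) read marks a cleaved and polyadenylated 3′ end. Batch 1 held 1 library each of siCtrl, siStar-PAP, siPAPα and siPAPγ, and the siPAPα+γ library, for which the labels give no batch, was set against the same siCtrl library because its table holds those siCtrl counts. These 4 comparisons share a control, and those of siPAPα+γ may cross batches. Batch 2 held 1 siCtrl and 1 siStar-PAP library made with the 3′READS+ protocol.

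The integrated stress response begins with kinases that phosphorylate the translation factor eIF2α when amino acids run short, proteins misfold in the endoplasmic reticulum, viral RNA appears or heme is lacking. Protein synthesis in general then slows, while ATF4 mRNA, whose upstream open reading frames hold back its translation in unstressed cells, is translated more. ATF4 protein binds amino acid response elements and induces genes of amino acid synthesis and transport, feedback regulators of growth signalling and the transcription factors ATF3 and CHOP (the product of DDIT3). ATF4 is therefore set largely by translation, and a mRNA level is no measure of its protein, whereas mRNAs of its targets are commonly read as a sign of the response.

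The 3′ ends of the mRNAs on which the results turn are shown first, since every read counted here marks one of them. Each sequence is the sense strand of hg19 from 5′ to 3′ and ends at the most-read PAS of the gene, and capitals mark the poly(A) signal, AATAAA or ATTAAA, found in it.
ATF4, chr22:39918659-39918688, plus strand: tgtgttccAATAAAttattttgtagggaaa
DDIT3, chr12:57910376-57910405, minus strand: gtccctatctATTAAAgtgactttctatga
ASNS, chr7:97481440-97481469, minus strand: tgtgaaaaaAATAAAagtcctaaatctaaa
PSAT1, chr9:80944980-80945009, plus strand: taaagaacATTAAAgtcctaaaacatctaa
CHAC1, chr15:41248681-41248710, plus strand: catactgttacccataaaactatctcttta
DDIT4, chr10:74035765-74035794, plus strand: acttttctAATAAAcatgtttgttaaaaca
SESN2, chr1:28608973-28609002, plus strand: AATAAAcgttcgctgaggttttgtttcata

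The most-read PAS of each of the 10 genes lay in the 3′-most exon, 0 nt from an annotated transcript end. AATAAA stood in the 40 nt before the PAS in 7 of 10 members, against 62.7% of all 16044 genes at their most-read PAS. ATTAAA stood there in 2 of 10, against 15.9%, and CHAC1 was the 1 member with neither, against 21.4%. The trimer ATA, which is part of the motif the study ascribes to Star-PAP, occurred between 100 and 41 nt before the PAS in 7 of 10 members, against 54% of all genes, and DDIT4 with 3 matches had the most. CHAC1, PHGDH and SESN2 had 0. These matches are descriptions of the letters, and the shares among members were near those of all genes. Of the 24 PASs, 18 lay in 3′-most exons and 6 in introns, and 99.8% of the members' reads fell in 3′-most exons. The 20 nt that follow the 24 PASs held 0 to 8 As, against a median of 4 over all PASs. The DDIT3 PAS overlaps MARS1 on the other strand, from which 3′READS tells it apart.

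Promoters were searched for the amino acid response element to which ATF4 binds, as TGATGNAA or its reverse complement TTNCATCA, on both strands from 250 nt before to 50 nt after each start in RefSeq. It was found in 3 of the 10 genes, ASNS, CHAC1 and ATF3, against 2.98% of the 11089 genes of the tables with a promoter entry. By promoter it was found in 3 of 16 of the members (18.8%), against 2.15% of the 16267 promoters of genes of the tables. Among all 35116 promoters in RefSeq, with genes outside the tables, the share was 3.62%. ASNS and ATF3 each have another start in RefSeq with 0 matches. These are matches of letters, and binding of ATF4 to them was not measured. The 3 sites are shown with the match in capitals, read along the strand of the gene in hg19.
ASNS, chr7:97501770-97501799, minus strand: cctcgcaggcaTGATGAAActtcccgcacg
CHAC1, chr15:41245449-41245478, plus strand: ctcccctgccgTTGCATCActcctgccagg
ATF3, chr1:212738547-212738576, plus strand: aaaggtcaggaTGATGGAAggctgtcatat
The other 7 genes had no match of these letters in this window, which says nothing of ATF4 binding elsewhere.

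The tables held 2347192 (siStar-PAP, batch 2) to 16191098 sense reads (siPAPα) per library, 54.5% to 70.5% of the PASS reads. TUT1, which encodes Star-PAP, had 83 reads in siCtrl and 2 in siStar-PAP of batch 1, and 6 and 4 reads in batch 2, too few to check that label. PAPOLA (PAPα) was at 6.21 RPM (reads scaled to the PASS total of the library) in siCtrl, 0.478 in siPAPα and 0.426 in siPAPα+γ. PAPOLG (PAPγ) had 5 reads in siCtrl, 15 in the library labelled siPAPγ and 6 in siPAPα+γ, so its counts do not check the label siPAPγ. The paper reports immunoblots for the knockdown of each polymerase, PAPγ among them, a protein measure that these counts do not address. Of 7 markers of HEK293 cells, 7 had reads in 6 libraries and 6 in siStar-PAP of batch 1, with PAX2 at 0. Markers of blood, liver and endothelial cells (PTPRC, CD3E, ALB and PECAM1) had 0 reads in all libraries. Groups had 1 library per batch, so that intervals below are 95% intervals of counting error, and reads carry no molecular identifiers.

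In RPM, most genes were lower in each KD library than in siCtrl. The median of all genes with at least 50 reads over the pair was a log2 ratio of -0.45 in siStar-PAP of batch 1, -0.26 in siPAPα, -0.33 in the library labelled siPAPγ, -0.38 in siPAPα+γ and -0.16 in siStar-PAP of batch 2. Ratios of the stress genes are therefore given both as such and, where it matters, as the difference from this median gene.

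ATF4, the transcription factor that carries the response, was among the members with most reads, 983 to 10421 per library. siCtrl of batch 1 held 641 RPM of ATF4, siStar-PAP 630, siPAPα 369, the library labelled siPAPγ 287 and siPAPα+γ 354, and the batch 2 libraries held 378 (siCtrl) and 231 (siStar-PAP). The order of the first 5 libraries was thus siCtrl and siStar-PAP at the top, siPAPα and siPAPα+γ in the middle and siPAPγ at the bottom. siStar-PAP of batch 1 stood at 98.3% of siCtrl with an interval of the ratio of 0.954 to 1.01, so that these neighbours did not differ beyond counting error. The other 4 ratios were -0.80 (siPAPα), -1.16 (siPAPγ), -0.85 (siPAPα+γ) and -0.71 (siStar-PAP, batch 2) on the log2 scale, with intervals of the fold that all lay below 1. Against the median gene the difference was 0.42 in siStar-PAP of batch 1 and -0.54, -0.83, -0.47 and -0.54 in the others. ATF4 mRNA was thus lower in 4 of 5 KD libraries on either scale, and in siStar-PAP of batch 1 it was level with siCtrl in RPM and above the median gene. In bulk RNA, fewer cells that express a gene and less RNA per cell cannot be told apart.

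**Figure D1:**
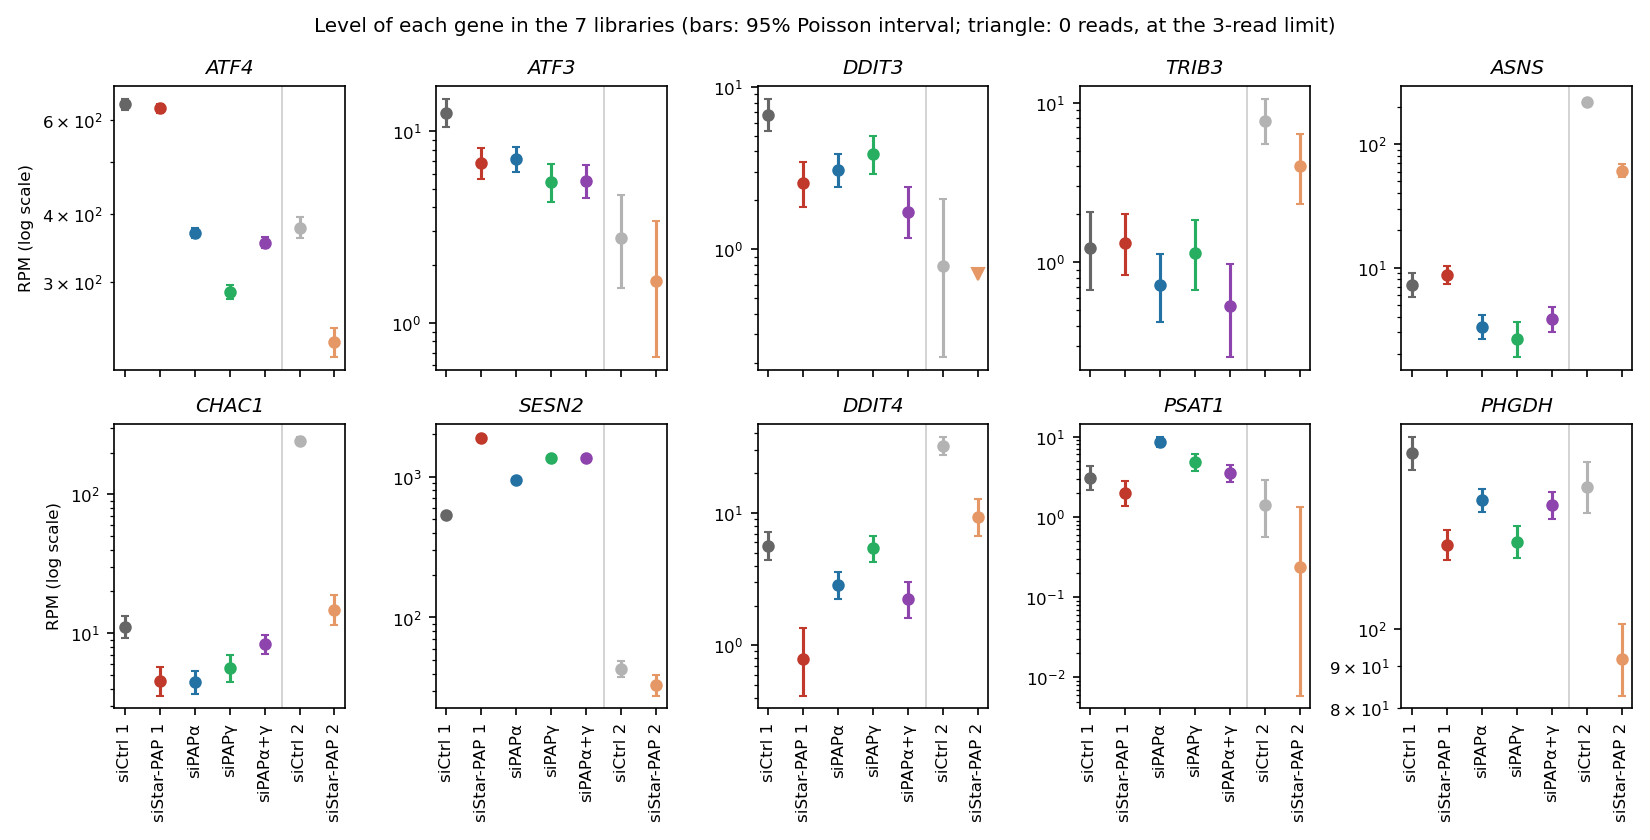
Level of each stress gene in RPM (y axis, log scale) in the 7 libraries (x axis), with batch 1 and siPAPα+γ left and batch 2 right of the grey line. Points are single libraries with 95% Poisson intervals, and the triangle is DDIT3 with 0 reads, drawn at the limit of 3 reads (0.706 RPM). SESN2 is lower in siCtrl (535 RPM) than in the 4 KD libraries beside it (939 to 1882), and ASNS and CHAC1 are far higher in siCtrl of batch 2 (220 and 244 RPM) than in that of batch 1 (7.26 and 11.1).

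ATF3 and DDIT3 encode the transcription factors that ATF4 induces, ATF3 an early stress factor and DDIT3 the pro-apoptotic CHOP. ATF3 stood at 12.5 RPM with siCtrl, 6.83 with siStar-PAP, 7.14 with siPAPα, 5.41 in the library labelled siPAPγ and 5.48 with siPAPα+γ. All 4 KD libraries lay below siCtrl without overlap of their intervals, and the intervals of the 4 overlapped each other. In batch 2 ATF3 had 14 and 7 reads (2.77 and 1.65 RPM), a difference within counting error (fold 0.594, 0.203 to 1.57). DDIT3 was at 6.74 RPM in siCtrl, and the KD libraries siStar-PAP, siPAPα, siPAPγ and siPAPα+γ held 2.54, 3.07, 3.85 and 1.70. It was lowest in siPAPα+γ, with 32 reads against 77, or 25.3% of siCtrl (fold 0.162 to 0.386). In batch 2 DDIT3 had 4 reads in siCtrl and 0 in siStar-PAP, which allows up to 0.706 RPM, so that no difference was detectable at this depth.

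TRIB3 encodes a pseudokinase that CHOP and ATF4 induce and that binds AKT and ATF4 itself. It had only 10 to 22 reads in the libraries of batch 1 and siPAPα+γ, 0.532 to 1.33 RPM, and no pair reached 50 reads. All 4 intervals of the fold included 1. In batch 2 it stood at 7.72 RPM in siCtrl (39 reads) and 4.0 in siStar-PAP (17 reads), a log2 ratio of -0.95 (fold 0.518, 0.275 to 0.937).

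The members PHGDH, PSAT1 and ASNS make amino acids: PHGDH and PSAT1 catalyse the first steps of serine synthesis from a glycolytic intermediate, and ASNS makes asparagine. PHGDH varied least of the 10, with siCtrl at 164 RPM, siStar-PAP at 127, siPAPα at 144, the library labelled siPAPγ at 128, siPAPα+γ at 142, and the batch 2 libraries at 149 (siCtrl) and 91.8 (siStar-PAP). Against the median gene it was higher by 0.07 in siStar-PAP of batch 1, 0.07 in siPAPα and 0.17 in siPAPα+γ and lower by 0.03 in siPAPγ, so that its lower levels in RPM were near those of most genes there. In siStar-PAP of batch 2 it was at 61.5% of siCtrl (fold 0.543 to 0.696), which was -0.54 from the median gene.

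PSAT1 went the other way in siPAPα. It had 35 reads in siCtrl and 215 in siPAPα, 3.06 and 8.57 RPM, or 2.80-fold higher (1.95 to 4.12). The library labelled siPAPγ held 4.80 RPM (1.57-fold, 1.03 to 2.42), and siStar-PAP with 1.99 and siPAPα+γ with 3.51 RPM were within counting error of siCtrl. In batch 2 PSAT1 had 7 reads in siCtrl and 1 in siStar-PAP, too few to compare.

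For ASNS, siCtrl held 7.26 RPM, siStar-PAP 8.70, siPAPα 3.31, the library labelled siPAPγ 2.64 and siPAPα+γ 3.83. Its level in siStar-PAP did not differ from siCtrl beyond counting error (1.20-fold, 0.908 to 1.59), while siPAPα, siPAPγ and siPAPα+γ were at 45.5%, 36.3% and 52.7% of siCtrl, with intervals that overlapped each other. In batch 2 the order of siCtrl and siStar-PAP was another one: 220 RPM (1112 reads) in siCtrl and 61.2 (260 reads) in siStar-PAP, 3.60-fold lower (fold 0.242 to 0.318). The ratio of siStar-PAP to siCtrl was thus 0.26 in 1 batch and -1.85 in the other on the log2 scale. With PASs of 3′-most exons alone the batch 1 ratio turned to -0.30, with batch 2 at -1.86.

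CHAC1, DDIT4 and SESN2 are effectors: CHAC1 degrades glutathione, and DDIT4 (REDD1) and SESN2 (Sestrin2) restrain the growth kinase mTORC1. The CHAC1 level was 11.1 RPM with siCtrl, 4.53 with siStar-PAP, 4.42 with siPAPα, 5.61 in the library labelled siPAPγ and 8.35 with siPAPα+γ. The first 3 KD libraries overlapped in their intervals at 40.8%, 39.8% and 50.5% of siCtrl, and siPAPα+γ was nearer to siCtrl, at 75.2% (fold 0.591 to 0.957) and -0.03 from the median gene. In batch 2 CHAC1 had 244 RPM with siCtrl (1231 reads) and 14.8 with siStar-PAP (63 reads), a level 16.4-fold lower (fold 0.0464 to 0.0783). That ratio of -4.04 on the log2 scale was the lowest of any member with reads in both libraries of a pair.

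DDIT4 was, beside CHAC1, the member more than 2-fold lower in siStar-PAP of both batches with at least 50 reads over each pair. siCtrl of batch 1 held 5.69 RPM of DDIT4, siStar-PAP 0.786, siPAPα 2.87, the library labelled siPAPγ 5.41 and siPAPα+γ 2.23, and the batch 2 libraries held 32.1 (siCtrl) and 9.41 (siStar-PAP). siStar-PAP stood at 13.8% of siCtrl in batch 1 (13 against 65 reads, fold 0.0698 to 0.253) and at 29.3% in batch 2 (40 against 162 reads, fold 0.202 to 0.417). The library labelled siPAPγ was level with siCtrl (fold 0.951, 0.677 to 1.34), and siPAPα and siPAPα+γ lay between, at 50.5% and 39.3%, with intervals below 1.

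SESN2 was the member with the most reads over all libraries and the only one above siCtrl in all 4 libraries set against siCtrl of batch 1. siCtrl held 6117 reads, or 535 RPM, siStar-PAP 1882 RPM, siPAPα 939, the library labelled siPAPγ 1349 and siPAPα+γ 1352. siStar-PAP was 3.51-fold higher (3.42 to 3.61), siPAPα 1.75-fold (1.70 to 1.80), and siPAPγ and siPAPα+γ did not differ from each other at 2.52-fold (2.45 to 2.59) and 2.53-fold (2.46 to 2.60). In batch 2 SESN2 was at 43.2 RPM in siCtrl (218 reads) and 33.2 in siStar-PAP (141 reads), 0.768-fold (0.617 to 0.954), so that the direction in siStar-PAP differed between the batches on the RPM scale and against the median gene (2.26 and -0.22). All of these reads lay at a single PAS.

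**Figure D2:**
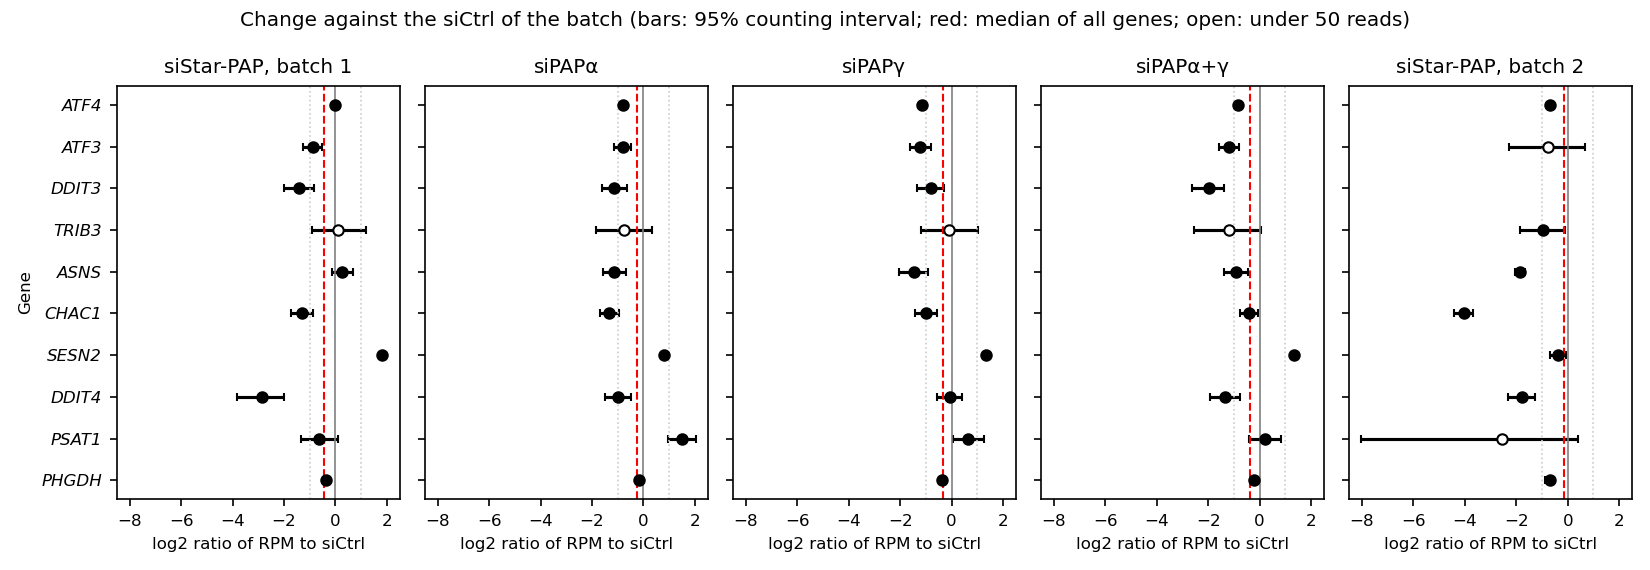
Log2 ratio of RPM in each KD library to siCtrl of its batch (x axis) for the 10 genes (y axis). Points are single pairs of libraries with 95% counting intervals, open points have under 50 reads over the pair, the dashed red line is the median of all genes and dotted lines are 2-fold. SESN2 lies right of 2-fold in 3 panels and at 1.75-fold in siPAPα, PSAT1 lies there in siPAPα, and CHAC1 in batch 2 is the point farthest left at -4.04. DDIT3 in batch 2 has no point, with 0 reads in siStar-PAP.

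With a change of more than 2-fold in RPM as the call, 9 members, all but TRIB3, had at least 50 reads over the pair in each of the 4 comparisons with siCtrl of batch 1. In siStar-PAP, DDIT3, CHAC1 and DDIT4 (3 of 9) were called lower, as were 26.2% of all genes, and SESN2 was called higher, as were 4.48%. In siPAPα, DDIT3, ASNS and CHAC1 (3 of 9) were lower against 22.1% of all genes, and PSAT1 was higher against 8.52%. In the library labelled siPAPγ, ATF4, ATF3 and ASNS (3 of 9) were lower against 20.7%, and SESN2 was higher against 5.66%. In siPAPα+γ, ATF3, DDIT3 and DDIT4 (3 of 9) were lower against 26.6%, and SESN2 was higher against 6.97%. Shares of members called lower were close to those of all genes, so that these counts are no result about the stress genes.

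In siStar-PAP of batch 2, where 7 members had enough reads and ATF3, DDIT3 and PSAT1 did not, ASNS, CHAC1 and DDIT4 (3 of 7) were called lower and 0 higher, against 11.7% and 3.61% of all genes. The median of these 7 was -0.95 against -0.16 for all genes, and all 7 lay below the median gene. In the 4 comparisons with siCtrl of batch 1 the median of the 9 members was -0.62, -0.81, -0.81 and -0.85, against the medians of all genes given above. There 4, 3, 3 and 3 of 9 members lay above the median gene. With calls made against the median gene, 1 member was lower in each of these 4 comparisons (13.5%, 15.3%, 12.1% and 16.2% of all genes), namely DDIT4, CHAC1, ASNS and DDIT3 in turn. Higher by that rule were SESN2 in all 4 and PSAT1 in siPAPα (10.9%, 13.2%, 10.2% and 13.6% of all genes). In siStar-PAP of batch 2, 3 of 7 members were lower against 8.64% of all genes and 0 higher against 5.78%. The members were chosen with earlier results of these data known, so these counts and medians are a description and no test.

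Only siStar-PAP and siCtrl had a library in both batches, and a fit of these 4 libraries with batch as a block (edgeR, quasi-likelihood test, TMM factors, 1 residual degree of freedom) tested what both batches shared. Of the 11878 genes in the fit, 146 (1.23%) rose and 128 (1.08%) fell at an adjusted p below 0.05, and of the 10 stress genes, CHAC1 and DDIT4 fell and none rose. CHAC1 fell by 2.35 on the log2 scale (SE 0.53, adjusted p = 0.0187), lower in 2 of 2 batches. DDIT4 fell by 1.91 (SE 0.45, adjusted p = 0.0256), also lower in both. Both calls were lost by edgeR when the block was left out (adjusted p = 0.9997 for each) and when PASS read totals took the place of TMM factors (0.0589 and 0.0582). The size of the CHAC1 change differed between the batches, -0.83 with batch 1 alone and -3.80 with batch 2 alone, and that of DDIT4 less so (-2.39 and -1.53). The quasi-likelihood test draws its variance largely from other genes. Its SE and p thus do not measure how far the 2 batches of a gene differed. The 1 member with a rise at an unadjusted p below 0.05 was SESN2, at 1.13 (SE 0.48, adjusted p = 0.263).

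ATF4 itself was at -0.01 (SE 0.36, adjusted p = 0.993), the value nearest 0 among the 10. DDIT3 stood at -1.34 (SE 0.98), PSAT1 at -0.76 (SE 1.08), ASNS at -0.51 (SE 0.45), ATF3 at -0.43 (SE 0.54), PHGDH at -0.18 (SE 0.33) and TRIB3 at -0.09 (SE 0.77), with adjusted p between 0.570 and 0.976. The median of the 10 was -0.47, with 9 below 0, against -0.00 for all genes in the fit. With these SEs, the changes of these genes could not be told from 0 after adjustment. SESN2, at 1.13 with an SE of 0.48, did not pass either.

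**Figure D3:**
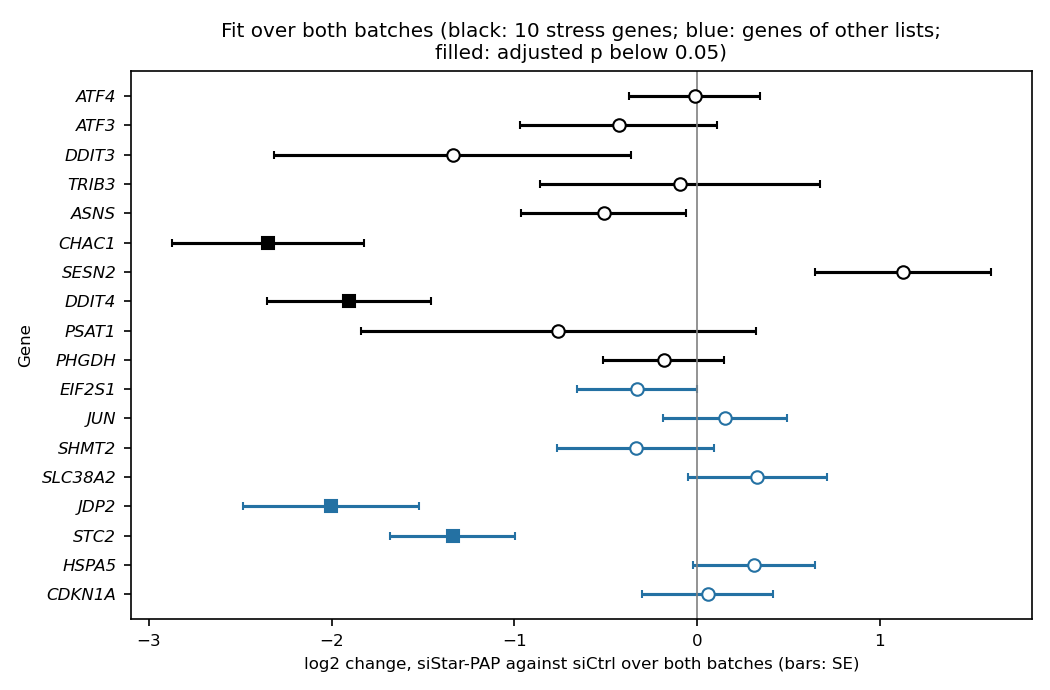
Log2 change between siStar-PAP and siCtrl over both batches (x axis, edgeR fit with batch as a block, bars are SE) for the 10 stress genes (black) and for genes of the other pathway lists named by rule (blue). Filled squares have an adjusted p below 0.05. CHAC1 (-2.35), DDIT4 (-1.91), JDP2 (-2.00) and STC2 (-1.34) are filled, and ATF4 lies at -0.01.

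The libraries of siPAPα, siPAPγ and siPAPα+γ had no second library. A single edgeR fit over all 7 libraries, in which these lone libraries are taken to vary like siCtrl and siStar-PAP and siCtrl is a fitted value over both batches, was run as an alternative. CHAC1 and DDIT4 fell in siStar-PAP in this fit too, where 1.5% of the 13771 genes fell and 1.76% rose. CHAC1 in siPAPα, where 2.48% were called lower and 3.25% higher, and ASNS in the library labelled siPAPγ, where 1.03% were called lower and 1.34% higher, passed the threshold against that fitted siCtrl. Their fitted values were -1.82 each, whereas with TMM factors CHAC1 was at -1.01 and ASNS at -1.10 against the siCtrl library of batch 1 alone. The fitted siCtrl draws on both batches, with batch as a block. The siStar-PAP change of these genes differed between batch 1 and batch 2, with -0.83 and -3.80 for CHAC1 and 0.73 and -1.61 for ASNS. These calls are therefore no test of the lone libraries against their own siCtrl. In siPAPα+γ, where 3.79% were called lower and 3.31% higher, no member passed.

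For ASNS, CHAC1, TRIB3, SESN2, DDIT3 and ATF3, the siCtrl libraries of the batches differed more from each other than any KD library with reads differed from its siCtrl. Between the 2 siCtrl libraries, ASNS was 30.3-fold, CHAC1 21.9-fold, TRIB3 6.30-fold and DDIT4 5.64-fold higher in batch 2 (3′READS+), and SESN2 was 12.4-fold, DDIT3 8.51-fold and ATF3 4.51-fold higher in batch 1. Among 9797 genes with at least 50 reads over both siCtrl libraries, 24.1% were more than 2-fold higher and 37.7% more than 2-fold lower in batch 2, with a median of -0.41 on the log2 scale. ASNS had a higher ratio than 98.1% of these genes and CHAC1 than 97.6%, whereas SESN2 had a higher ratio than 6.39%. ATF4 and PHGDH were nearer the median gene, at 0.589 and 0.909 of their level in batch 1. Protocol, culture and batch cannot be told apart here, and with siCtrl levels this far apart the siStar-PAP ratios of ASNS, CHAC1, DDIT4 and SESN2 started from different levels in the 2 batches.

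Most members had 1 dominant 3′ end. ATF4, CHAC1, DDIT3, PHGDH and SESN2 had a single PAS each, so a change in their level is a change at that PAS. ASNS also had 2 PASs listed as intronic, both with AATAAA in capitals here, read on the minus strand of hg19. They are shown because they took a large share of ASNS reads in batch 1.
ASNS, chr7:97493542-97493571, minus strand: ggtaatAATAAAtttttctatagattttca
ASNS, chr7:97500894-97500923, minus strand: ctttaAATAAAaaggacagttttcatctcg
The first lies in an exon of another annotated ASNS transcript, 29 nt from its end, and the second 2510 nt from any ASNS transcript end. A gene annotated on the same strand, ENSG00000284707, overlaps each of the ASNS PASs. Reads at these PASs, counted here for ASNS, therefore cannot be assigned to ASNS alone by position.

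The share of ASNS reads at the PAS of the 3′-most exon was 62.7% in siCtrl of batch 1 (Clopper-Pearson interval 51.3 to 73.0, 83 reads), 42.4% in siStar-PAP (34.2 to 50.9, 144 reads), 57.8% in siPAPα, 48.7% in the library labelled siPAPγ and 76.4% in siPAPα+γ (64.9 to 85.6, 72 reads). In siStar-PAP the PAS at position 97493542 held 53.5% of ASNS reads, against 30.1% in siCtrl. In siPAPα the PAS at position 97500894 held 27 of 83 reads, 32.5% (22.6 to 43.7), against 7.23% in siCtrl. The full-length 3′ end of ASNS thus had fewer reads than the intronic PASs together in siStar-PAP and siPAPγ (interval 32.4 to 65.2), in both within counting error of an even split. In batch 2 nearly all ASNS reads were full-length, 99.9% in siCtrl and 99.2% in siStar-PAP.

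For PSAT1 the distal PAS took 15 of 35 reads in siCtrl, 42.9% (26.3 to 60.6), and 11 of 33 in siStar-PAP, 33.3% (18.0 to 51.8). It took 196 of 215 reads in siPAPα, 91.2% (86.5 to 94.6), 38 of 71 in the library labelled siPAPγ, 53.5% (41.3 to 65.5), and 64 of 66 in siPAPα+γ, 97.0% (89.5 to 99.6). The higher PSAT1 level in siPAPα was thus one of its distal PAS. In siPAPα+γ the distal PAS also had more reads than in siCtrl, and the log2 ratio of PSAT1 there was 0.20 over all PASs and 0.96 over PASs of 3′-most exons alone. ATF3 had a proximal PAS in its 3′-most exon, with 9.79% of its reads in siCtrl (5.46 to 15.9), 7.08% and 17.9% in siStar-PAP and siPAPα, 10.0% in the library labelled siPAPγ and 28.2% in siPAPα+γ (19.7 to 37.9).

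By the rule of a share change of at least 10 percentage points at the most-read PAS, with at least 50 reads in each library, ASNS was called in siStar-PAP of batch 1 (1 of 2 members tested, against 43.3% of all genes tested). ASNS and ATF3 were called in siPAPα+γ (2 of 2, against 42.6%). In siPAPα 0 of 3 members were called (47.5% of all genes), in the library labelled siPAPγ 0 of 2 (40.8%) and in siStar-PAP of batch 2 0 of 1 (23.7%). Such changes were common among all genes with these reads, and PSAT1 with 35 reads in siCtrl did not enter.

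**Figure D4:**
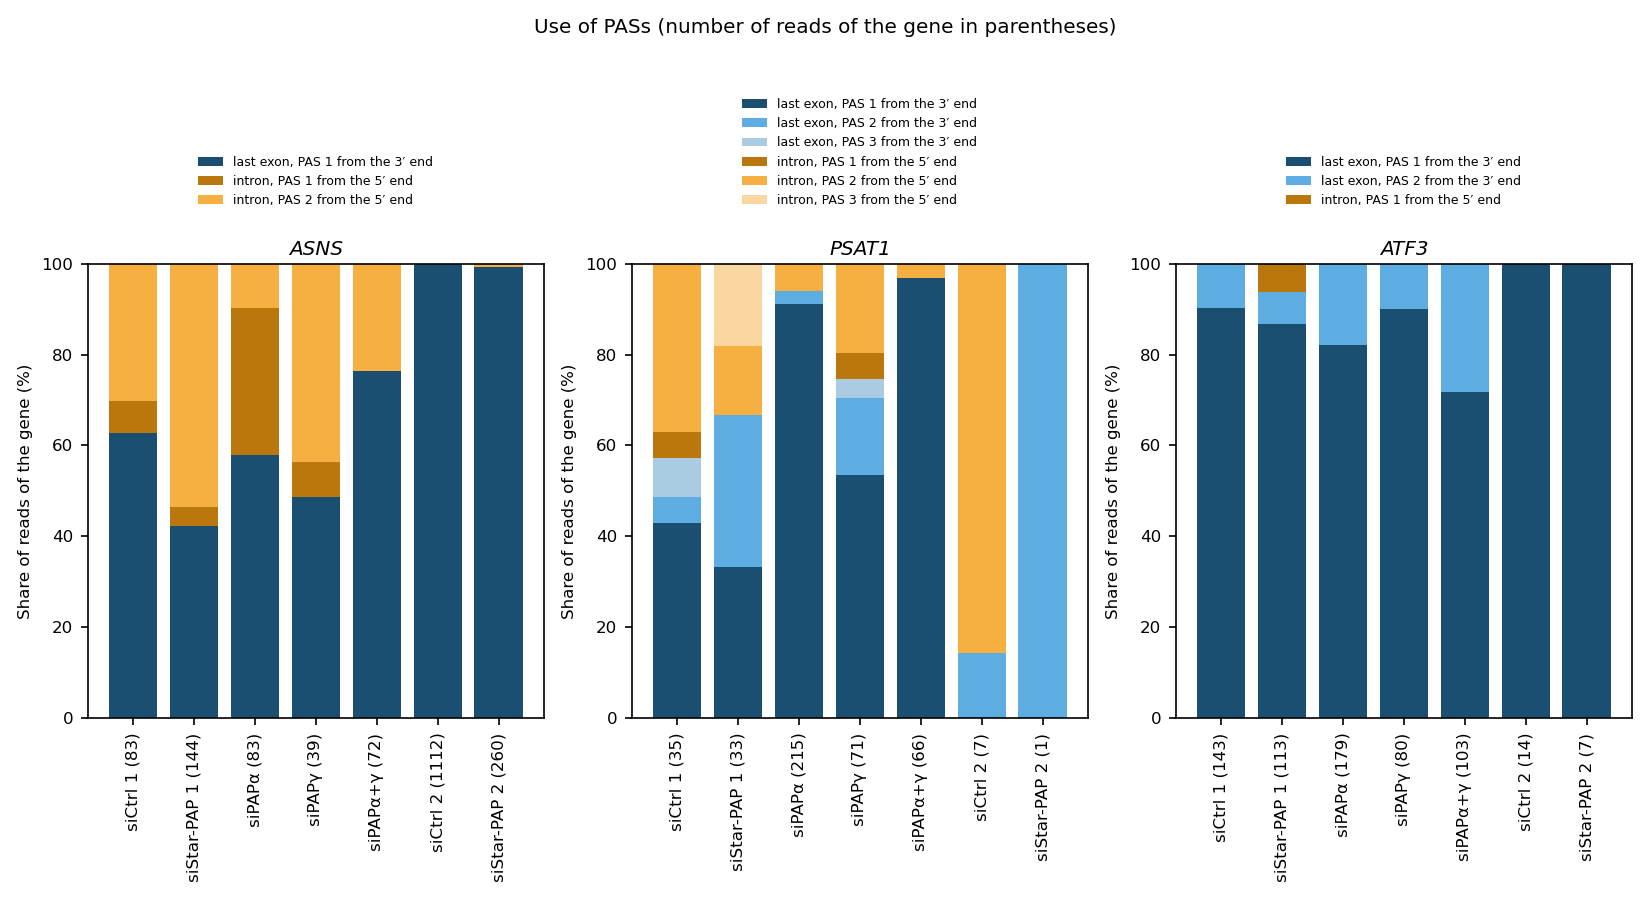
Share of the reads of ASNS, PSAT1 and ATF3 at each of their PASs (y axis, percent) in the 7 libraries (x axis, with the number of reads of the gene in parentheses). Blue marks PASs of the 3′-most exon, numbered from the 3′ end, and orange marks intronic PASs, numbered from the 5′ end. The distal PAS of PSAT1 holds 91.2% in siPAPα and 97.0% in siPAPα+γ against 42.9% in siCtrl, and ASNS in batch 2 is almost wholly at its 3′-most PAS.

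Other parts of the pathway were followed as lists of genes in the fit over both batches. Among 11 other stress effectors under ATF4 or CHOP, 2 fell, 10 were below 0 and the median was -0.71. The 2 were JDP2, a repressor of the AP-1 family, with -2.00 (SE 0.48, adjusted p = 0.0272), and STC2, a secreted glycoprotein, with -1.34 (SE 0.34, adjusted p = 0.0395). Of the effectors, 0 were called without the block, 0 with PASS read totals and 1 by DESeq2, so that these calls depend on the fit. JDP2 had 10.3 RPM with siCtrl, 2.84 with siStar-PAP, 1.08 with siPAPα, 1.82 in the library labelled siPAPγ, 0.479 with siPAPα+γ, and 26.3 and 3.29 with siCtrl and siStar-PAP of batch 2. STC2 was at 44.6, 12.2, 5.54, 8.85, 5.53, 74.3 and 26.1 RPM in the same order. Both were thus lower than their siCtrl in 5 of 5 KD libraries. More than 2-fold lower were 4 of 10 effectors in siStar-PAP of batch 1, 7 of 10 in siPAPα, 5 of 10 in siPAPγ, 6 of 9 in siPAPα+γ and 5 of 10 in siStar-PAP of batch 2, against 26.2%, 22.1%, 20.7%, 26.6% and 11.7% of all genes. None were called higher, and the medians were -0.86, -1.95, -1.07, -2.41 and -0.88, against -0.45, -0.26, -0.33, -0.38 and -0.16 for all genes. The list was chosen with earlier results of these data known, so these counts and medians are a description and no test.

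In 6 further lists no gene passed in the fit by edgeR, and DESeq2 also called none, while 1 amino acid transporter was called lower without the filter on low counts and in the fit over 7 libraries. They were the kinases and phosphatases of eIF2α (median 0.32 over 9 genes, 1 down at an unadjusted p below 0.05), bZIP partners of ATF4 (-0.17 over 4, 1 up and 1 down), other enzymes of amino acid synthesis and one-carbon metabolism (-0.34 over 9, 1 up), amino acid transporters (-0.04 over 8, 1 up and 1 down), the ATF6 and XBP1 branches of the unfolded protein response (0.05 over 15, 1 down) and p53 targets (0.13 over 12, 1 down). HSPA5, the endoplasmic reticulum chaperone BiP and the most-read gene of the ATF6 and XBP1 list, ranged from 61.1 to 115 RPM over the 7 libraries (0.31, SE 0.33, adjusted p = 0.727). Its log2 ratio was 0.71 in siPAPα, 0.60 in siPAPγ and 0.43 in siPAPα+γ. Medians of its list there were -0.77, -0.57 and -1.31, against -0.26, -0.33 and -0.38 for all genes. More than 2-fold lower were 6, 4 and 10 of 15, against 22.1%, 20.7% and 26.6% of all genes. Higher were 0, 0 and 1, against 8.52%, 5.66% and 6.97%. In siStar-PAP of batches 1 and 2, 3 of 15 and 0 of 11 were lower, against 26.2% and 11.7%. SHMT2, a mitochondrial serine enzyme under ATF4, was at 168 RPM (siCtrl) and 193 RPM (siStar-PAP) in batch 1 and at 1071 and 361 in batch 2. Of its list, 5 of 9 genes were more than 2-fold lower in siStar-PAP of batch 2, against 11.7% of all genes, and 0 higher. The median there was -1.04, against -0.16 for all genes. In siPAPγ 4 of 9 of this list and 4 of 9 of the eIF2α list were lower, against 20.7%, with 1 and 0 higher. All lists were chosen with earlier results of these data known, so counts by library are a description and no test. EIF2S1, which encodes eIF2α, was at -0.33 (SE 0.33), JUN at 0.15 (SE 0.34), SLC38A2 at 0.33 (SE 0.38) and CDKN1A at 0.06 (SE 0.36), with adjusted p between 0.707 and 0.967.

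The genes whose 5 log2 ratios were most like those of ATF4, by root mean square difference among 3765 genes with at least 50 reads in every library, were VEGFB (0.128), TCFL5 (0.157), B4GALT2 (0.190), PARP11 (0.198) and HNRNPUL2 (0.198). VEGFB was at -0.08 in siStar-PAP of batch 1, -0.72 in siPAPα, -0.97 in the library labelled siPAPγ, -1.02 in siPAPα+γ and -0.80 in siStar-PAP of batch 2. Of the stress genes with that many reads, PHGDH was at position 644 by this likeness (0.556), CHAC1 at 3548 (1.63) and SESN2 at 3652 (1.85). The pattern of ATF4 mRNA was thus far from those of CHAC1 and SESN2 and nearer to that of PHGDH. CHAC1 differed most from ATF4 in siStar-PAP of batch 2, at -4.04 against -0.71.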

How the data were processed

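HEK293 cells had received siCtrl, siStar-PAP, siPAPα, siPAPγ or siPAPα+γ siRNAs, and 7 3′READS libraries were analysed. The deposited values are raw counts of PASS reads per PAS, which the authors obtained with bowtie2 (genome hg19) from unique alignments with a MAPQ score over 10 and at least 2 untemplated Ts, after clustering of PASs within 24 nt. All columns of the deposited tables were mapped to a library (0 were left over). The siCtrl counts of batch 1 stand in 2 tables and were the same at 32024 of 32137 shared PASs and at all PASs of the stress genes.

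Counts of sense PASs were summed per gene, without upstream antisense sites. Some PASs are listed under 2 genes and counted for both. RPM is reads per 1000000 PASS reads, with the study's PASS read totals from its supplement. Single pairs of libraries were compared by the log2 ratio of RPM with no test, a change over 2-fold and at least 50 reads over the pair. Poisson and Clopper-Pearson 95% intervals cover counting error. The range of 2347192 to 16191098 sense reads per library sets this error, and 0 reads were drawn at a limit of 3 reads.

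siStar-PAP and siCtrl of both batches were fitted with edgeR (quasi-likelihood test, TMM factors, filterByExpr, batch as a block, Benjamini-Hochberg adjustment over all genes). The replicate number is the batch, as the labels mark batch 2 and its protocol. The difference between the batches correlated at r = 0.870 between siCtrl and siStar-PAP over 11878 genes, which is the check of this pairing. Nothing says whether libraries came from separate cultures. The SE is the log2 change divided by the square root of F. Alternatives were no block, RLE factors, PASS totals, DESeq2, no filter, all 7 libraries, 3′-most exons only, each batch left out, other totals, a pseudocount of 1 read, a minimum of 20 reads, a share change of 20 points and PASs within 50 nt merged. Differences from the median gene were added after seeing the data.

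Members and lists were chosen with earlier results of these data known, and some genes stand in more than 1 list. The named genes were the members, the knocked down genes, the 5 genes most like ATF4, and of each list the genes called in the fit (at most 4) or else the most-read gene. The steps were tested on simulated data. R 4.3.3, edgeR 4.0.16, DESeq2 1.42.0, Python 3.11.15, numpy 2.4.6, pandas 2.3.3, scipy 1.17.1 and matplotlib 3.10.9 were used. Sequences were read from hg19 (GRCh37), transcript ends from GENCODE annotation lifted to it. Promoters came from RefSeq (GRCh38.p14), and the windows shown matched hg19 exactly at 1 place each.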

Additional observations from a re-analysis of the deposited data

Results flagged for a closer look

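SESN2 moved in opposite directions in siStar-PAP of the 2 batches. The log2 ratio of siStar-PAP to siCtrl was 1.81 in batch 1 (31138 against 6117 reads) and -0.38 in batch 2 (141 against 218 reads). With 1 library per group in each batch, the difference between the batches was not tested. SESN2 in siCtrl was 12.4-fold higher in batch 1 than in batch 2, and its part in the difference was not tested.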

How the results depend on the processing

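In the fit over both batches, 146 genes rose and 128 fell. Without the replicate block edgeR called 0 up and 0 down (14 and 40 at an unadjusted p below 0.05), with PASS read totals 13 and 63, with DESeq2 200 and 83, with RLE factors 145 and 109, without the filter 212 and 232, with 3′-most exons 145 and 136, and with all 7 libraries 243 and 207. Of the 2 stress genes that fell, 0 were called without the block or with PASS read totals, and 1 with DESeq2 (CHAC1, adjusted p = 0.00242), which gave no adjusted p for DDIT4, ATF3, DDIT3, PSAT1 and TRIB3. PASS totals moved the median of all genes to -0.36. The sign of ATF4 turned to 0.15 without the block and 0.0154 with RLE factors and 0.0207 with DESeq2, and that of PSAT1 to 0.17 with 3′-most exons. Leaving out 1 batch leaves 1 library a group and no test. Without replicate 2 and without replicate 1 the values were 0.44 and -0.47 for ATF4, 0.59 and -0.71 for TRIB3, 0.73 and -1.61 for ASNS, 2.28 and -0.14 for SESN2, 0.10 and -0.46 for PHGDH, -0.83 and -3.80 for CHAC1, -2.39 and -1.53 for DDIT4, -0.41 and -0.52 for ATF3 and -0.15 and -2.32 for PSAT1, so that SESN2 rested on batch 1, and the size of the CHAC1 change on batch 2.

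The number of stress genes over 2-fold lower went from 3 to 1 with TMM factors, and to 1 against the median gene, in each of the 4 comparisons with siCtrl of batch 1, and to 1 with table totals in siPAPγ. The edgeR fit over 7 libraries called 1 lower in siPAPα, 1 in siPAPγ and 0 in siPAPα+γ, and 0 higher in these 3. Those higher went from 1 to 2 in siPAPα with TMM factors or against the median gene, and to 2 in siPAPγ with TMM factors or 3′-most exons. With 20 points in place of 10, 0 of 2 members changed in PAS share in siPAPα+γ. In siStar-PAP of batch 2 the counts did not move. The cause was not tested. The other 73 counts of genes under an alternative stayed within 1.5 times. TRIB3, PSAT1 and DDIT3 had too few reads in batch 2 for more than large changes to show.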

Other observations

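Upstream antisense sites, left out of the values above, were listed for 3 of the stress genes. The site of PSAT1 at position 80910654 of chromosome 9 had 7 reads with siCtrl, 14 with siStar-PAP, 7 with siPAPα, 10 in the library labelled siPAPγ and 7 with siPAPα+γ, and 2 and 0 reads in siCtrl and siStar-PAP of batch 2. The site of DDIT4 at position 74031138 of chromosome 10 had 8 reads in siCtrl and 0 in siStar-PAP of batch 2, and that of ATF3 at position 212779449 of chromosome 1 had 2 and 0. These counts are too low for a comparison.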
